A study of Mus musculus with 18 samples.

Results

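The syndecans and the glypicans are the main families of heparan sulfate proteoglycans at the cell surface, and the mouse genes taken here were the 4 syndecans (Sdc1, Sdc2, Sdc3 and Sdc4) and the 6 glypicans (Gpc1 to Gpc6), chosen by gene symbol. All 10 were found among the 55450 genes of the deposited table. Of these 10 genes, 7 had enough counts to be tested, together with 21154 other genes. Gpc2, Gpc3 and Gpc5 were not tested.

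The cells were mouse embryonic fibroblasts (MEF) obtained from the American Type Culture Collection. They were transfected with an empty pcDNA3 vector, with the Col1a1-miR-29b vector, in which a rat Col1a1 promoter drives EGFP and a human miR-29b-1 sequence, or with the CMV-miR-29b vector, which differs in holding a CMV promoter in that place. Both miR-29b vectors also carry mRFP1 behind an SV40 promoter, and the empty vector holds none of these inserts. The miR-29b groups thus differ from the control in more than miR-29b. According to the paper, DNA was dosed by moles, which by vector size gave more mass per ml for Col1a1-miR-29b than for CMV-miR-29b. These groups therefore differ from each other in DNA mass as well as in the promoter, and the part of DNA mass was not tested. Each of the 3 vectors was studied without treatment and with TGF-β added at 6 h after transfection for 24 h, which gave 6 groups of 3 libraries of poly(A) RNA, and no gene of the cells was deleted in any group.

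Total counts ranged from 65898017 to 80332633 per library. Mir29b-1 had 0 counts in the 6 empty vector libraries, 0 to 6 counts in the 6 Col1a1-miR-29b libraries and 110 to 309 counts in the 6 CMV-miR-29b libraries. In libraries of poly(A) RNA these counts do not measure the mature microRNA, and 0 counts do not show that miR-29b was absent. With TGF-β in empty vector cells, Col1a1, the main chain of fibrillar collagen, rose from 990 ± 71.7 to 2362 ± 162 CPM (counts scaled to a common library size by the trimmed mean of M values; mean ± SD, n = 3). Of 10 fibroblast markers, Col1a1, Col1a2, Col3a1, Fn1 and Vim had at least 8529 counts in each of the 18 libraries, Pdgfrb had 776 to 2040, Pdgfra 451 to 955 and Dcn 146 to 501, while Thy1 had 0 to 8 counts and Lum had 0 in each. With TGF-β in empty vector cells 4 of the 8 tested rose and 1 fell, Dcn, a small matrix proteoglycan (log2 fold change -1.11, adjusted p 0.00446). At an adjusted p under 0.05, 3.88% of all tested genes rose there and 2.01% fell. The labels do not say that the libraries of a group came from separate cultures, while the results of the study speak of repeated experiments per group. If they did not, the p-values measure a spread that is technical. Less RNA of a gene per cell and fewer cells that express it cannot be told apart in bulk RNA.

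Syndecans span the membrane by a single helix and carry their heparan sulfate chains far from the cell surface, while their short cytoplasmic tails bind PDZ proteins and the actin cytoskeleton. Glypicans have no tail and are held in the outer leaflet of the membrane by a glycosylphosphatidylinositol anchor, with their chains close to the membrane. The chains of both families bind growth factors, morphogens and matrix proteins, and both core proteins can be released from the cell. In fibroblasts, Sdc4 is known as a co-receptor of integrins in focal adhesions, and TGF-β is the best known inducer of matrix production.

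The sequences that bear on the comparisons are those of the microRNA that the vectors express and of the windows next to the genes. In the mature microRNAs below, from RefSeq for GRCm38.p6, the capitals mark the seed, bases 2 to 8 from the 5′ end, which pairs with target transcripts. The 3 members of the family share the seed.
mmu-miR-29b-3p: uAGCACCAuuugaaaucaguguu
mmu-miR-29a-3p: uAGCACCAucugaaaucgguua
mmu-miR-29c-3p: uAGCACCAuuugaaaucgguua

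The letters that pair with this seed, TGGTGCT, occur on the sense strand in the longest annotated 3′ UTR of 14.8% of 14375 tested genes, of which the median length was 1096 bases. Among the 10 syndecan and glypican genes, whose longest 3′ UTRs were 441 to 3510 bases long, Gpc6 held the letters once, 1382 bases after the stop codon, and the other 9 genes did not hold them. The site of Gpc6 is shown because it is the only one of the families in these windows, with the letters in capitals.
Gpc6 site: acttgcttttccccTGGTGCTc

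The RefSeq table of promoters, which gives 250 bases before and 50 after each gene start, held 7 of the 10 genes (Sdc1, Sdc3, Sdc4, Gpc2, Gpc3, Gpc4 and Gpc5). The 2 windows below belong to genes that were higher with TGF-β in empty vector cells. Each stops at the first annotated start of the gene in the deposited table. Capitals mark CAGAC, the letters that Smad proteins are known to bind, and GGGCGG, the GC box, on either strand, and no GC box overlapped a CAGAC.
Sdc3, chr4:130792287-130792536, plus strand, GRCm38.p6: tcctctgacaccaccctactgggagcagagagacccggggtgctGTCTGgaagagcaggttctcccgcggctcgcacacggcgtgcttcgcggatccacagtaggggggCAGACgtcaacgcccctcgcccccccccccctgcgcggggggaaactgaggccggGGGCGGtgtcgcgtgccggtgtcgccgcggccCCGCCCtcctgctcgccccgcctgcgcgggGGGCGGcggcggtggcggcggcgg
Sdc1, chr12:8771146-8771322, plus strand, GRCm38.p6: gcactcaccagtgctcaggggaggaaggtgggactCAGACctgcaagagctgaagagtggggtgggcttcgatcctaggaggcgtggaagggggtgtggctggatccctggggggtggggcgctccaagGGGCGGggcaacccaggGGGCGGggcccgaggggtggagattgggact

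The Sdc3 window held 2 CAGAC and 3 GC boxes, and the Sdc1 window held 1 and 2. Over whole windows, at least 1 CAGAC occurred in 49.6% and at least 1 GC box in 35.7% of 32851 RefSeq promoters. Sdc4, Gpc2, Gpc3, Gpc4 and Gpc5 had no CAGAC in their whole windows and held 4, 3, 4, 1 and 1 GC boxes there. The windows of Sdc4 and Gpc4 lay wholly inside the gene bounds of the deposited table. They are thus not stretches before the first annotated start, as those shown for Sdc3 and Sdc1 are. G and C made up 54.7% to 77.7% of the bases in the 7 windows, against a median of 52.7% over the promoters. The AP-1 letters TGANTCA, found in 7.81% of the promoters, were in none of the 7 windows, and the TEAD letters GGAATG, found in 14.7%, were once in that of Gpc4. These matches describe the letters of the windows and not sites that are in use.

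All 4 syndecans were detected, and Sdc4 had the highest level of the families. Levels were compared between genes in FPKM, the deposited values per transcript length and depth, over 16 libraries. Sdc4, the focal adhesion syndecan, had a median of 98.0 FPKM and ranged from 84.8 to 117. Sdc1, known best from epithelia and plasma cells, had a median of 26.7 FPKM (24.0 to 29.4), and Sdc2, a syndecan of mesenchymal cells, had 18.8 FPKM (17.8 to 19.9). Gpc1, a glypican that binds fibroblast growth factors, had 7.73 FPKM (5.78 to 10.4). The ranges of these 4 genes did not overlap each other.

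The other genes were low. Sdc3, the syndecan of the nervous system, had a median of 0.906 FPKM (0.557 to 1.53). Gpc6, a glypican of the growing skeleton, had 0.537 FPKM (0.320 to 0.903), and Gpc4 had 0.409 FPKM (0.204 to 0.572). Neighbours in this order were not separated over all libraries, since the range of Sdc3 overlapped that of Gpc6 and the range of Gpc6 overlapped that of Gpc4. Within the TGF-β libraries of all 3 vectors, Sdc3 ranged from 1.09 to 1.53 FPKM, above every value of Gpc6 and Gpc4.

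**Figure D1:**
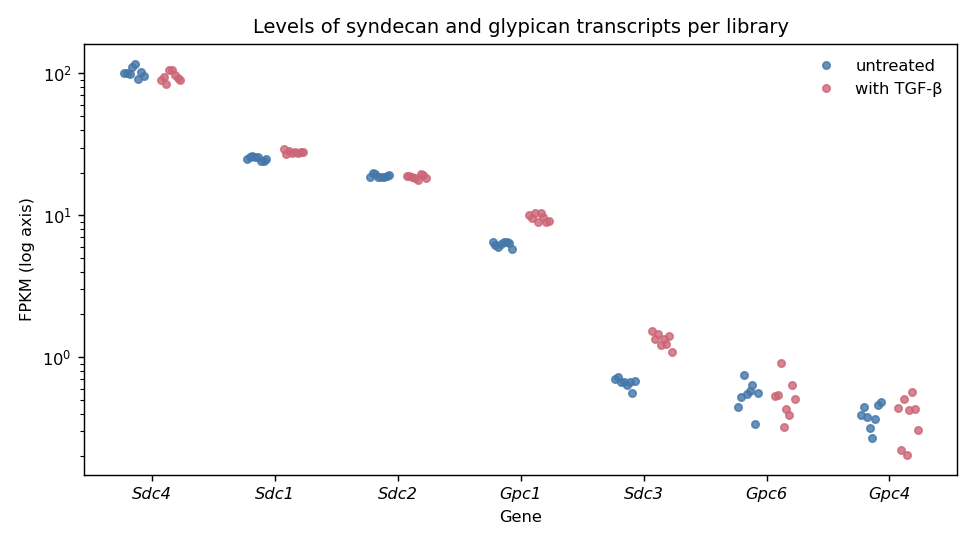
FPKM on a log axis of the 7 tested genes, one point per library, for 8 untreated and 8 TGF-β libraries with a usable FPKM value. Sdc4 lies highest at 84.8 to 117 FPKM, and the points of Gpc1, Sdc3 and, by a narrow gap, Sdc1 split into untreated and TGF-β libraries that do not overlap.

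The remaining glypicans were at or near 0. Gpc5 had 0 counts in all 18 libraries, which allows up to 0.00224 CPM over their summed total and up to 0.0455 CPM in the shallowest library, for counting error only. This limit takes each count as a separate molecule, and since low counts in these libraries were often multiples of 4, the true limit may be higher. Gpc3, a regulator of Hedgehog signalling and body size, had 4 counts in 1 library and 0 in the other 17, and Gpc2, a glypican of neurons, had at most 4 counts and was above 0 in 3 libraries. Gpc3 and Gpc5 each lie beside a family member that was detected. Gpc3 is 107 kb from Gpc4 on chromosome X, and Gpc5 is 400 kb from Gpc6 on chromosome 14, each pair on the same strand.

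As a share of the summed FPKM of the 10 genes, Sdc4 took 58.5% to 69.1% of each library, Sdc1 a mean of 17.3%, Sdc2 12.3% and Gpc1 5.17% over 16 libraries. The sum itself was 153 ± 0.830 FPKM in untreated empty vector cells and 150 ± 4.03 with TGF-β (n = 3 each). Within it, the share of Sdc4 went from a mean of 65.5% to 60.1% and that of Gpc1 from 4.07% to 6.71%, and neither pair of groups overlapped. The share of a gene also depends on the other genes, and these shares were not tested.

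To learn how the families answer TGF-β, treated libraries were compared with untreated ones within each vector, with edgeR's quasi-likelihood F test over 21161 genes and Benjamini-Hochberg adjustment. In empty vector cells 3 of the 7 tested genes were called at an adjusted p under 0.05, all higher (Sdc3, Gpc1 and Sdc1), where 5.88% of all genes were called, 3.88% higher and 2.01% lower. In Col1a1-miR-29b cells the count was 2, Sdc3 and Gpc1, both higher, against 4.32% of all genes (3% higher and 1.32% lower). In CMV-miR-29b cells it was again 3, Sdc3, Gpc1 and Sdc1, all higher, against 4.95% (3.08% higher and 1.87% lower). The median log2 fold change of the 7 genes was 0.18, 0.15 and 0.01 in the 3 vectors, and that of all genes lay between -0.01 and 0.00. With scaling by total counts in place of the trimmed mean, 53.1% instead of 65.9% of the calls in empty vector cells were higher.

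Sdc3 had the largest rise of the tested members. Without TGF-β it was at 4.72, 4.87 and 4.48 CPM in the empty vector libraries, and with TGF-β at 10.6, 9.17 and 10.1 CPM. In Col1a1-miR-29b cells it was at 4.38, 4.16 and 4.08 CPM without TGF-β and at 8.13, 9.06 and 8.50 CPM with it. In CMV-miR-29b cells it was at 4.51, 3.70 and 4.56 CPM without TGF-β and at 8.29, 9.45 and 7.31 CPM with it. All 9 treated libraries lay above all 9 untreated ones, with a gap between 4.87 and 7.31 CPM. The log2 fold change was 1.09 ± 0.112 (SE) in empty vector cells, at an adjusted p of 1.11e-05. Col1a1-miR-29b cells had 1.03 ± 0.112 (adjusted p 2.78e-05), and CMV-miR-29b cells 0.97 ± 0.112 (adjusted p 4.13e-05). On the scale of log2(FPKM + 1), which understates the change of low genes, limma gave 0.53 in empty vector cells. In counts these levels rest on 284 to 390 reads per untreated library and 532 to 753 per treated library, so Sdc3 stayed a minor member, with 0.971% of the summed FPKM in treated empty vector cells.

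Gpc1, the only glypican above 1 FPKM, was the second gene that rose with each vector. Without TGF-β it was at 37.7, 35.7 and 34.3 CPM in the empty vector libraries, and with TGF-β at 60.1, 55.4 and 62.0 CPM. In Col1a1-miR-29b cells the untreated values were 35.6, 36.7 and 31.1 CPM and the treated ones 51.7, 60.0 and 49.2 CPM. In CMV-miR-29b cells the untreated values were 37.7, 36.6 and 33.3 CPM and the treated ones 55.6, 52.0 and 52.4 CPM. The treated and untreated libraries did not overlap, the nearest being 37.7 and 49.2 CPM. The log2 fold change was 0.72 ± 0.0824 in empty vector cells, at an adjusted p of 3.44e-05. Col1a1-miR-29b cells had 0.64 ± 0.0824 (adjusted p 0.000144), and CMV-miR-29b cells 0.57 ± 0.0823 (adjusted p 0.000400). The calls of Sdc3 and Gpc1 held with each vector under each of the 26 alternatives, including leaving out any 1 library.

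**Figure D2:**
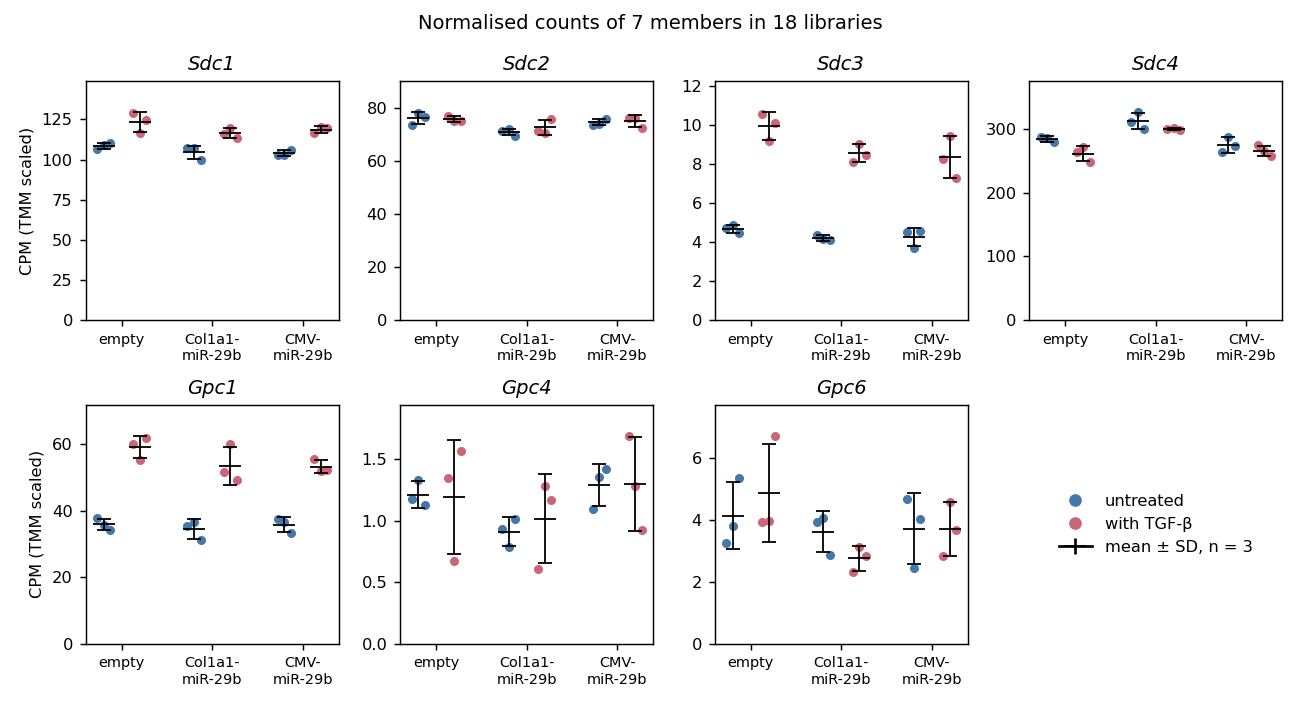
Normalised counts (CPM, linear axes from 0) of the 7 tested genes in 18 libraries, as points, with the mean ± SD of each group of 3 in black. Sdc3 and Gpc1 rise with TGF-β with each vector, Sdc2 stays between 69.7 and 78.4 CPM, and the points of Gpc4 and Gpc6 overlap between most groups.

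Sdc1 changed by a small and less stable amount. In empty vector cells it was at 107, 109 and 110 CPM without TGF-β and at 129, 117 and 124 CPM with it. In Col1a1-miR-29b cells it was at 107, 107 and 100.0 CPM without TGF-β and at 116, 120 and 114 CPM with it. In CMV-miR-29b cells the values were 103, 103 and 106 CPM without and 116, 120.0 and 120 CPM with TGF-β. All 9 treated libraries were above all 9 untreated ones, at 114 to 129 against 100.0 to 110 CPM. The log2 fold change was 0.18 ± 0.0418 in empty vector cells (adjusted p 0.0147) and 0.19 ± 0.0418 in CMV-miR-29b cells (adjusted p 0.0120). In Col1a1-miR-29b cells it was 0.15 ± 0.0418, which missed the threshold with edgeR (adjusted p 0.0528), and passed it with DESeq2 (0.0152) and with edgeR without empty vector TGF-β replicate d (0.0307). The call in empty vector cells was lost without untreated replicate c (adjusted p 0.0797), untreated replicate d (0.0602), TGF-β replicate c (0.0950) or TGF-β replicate e (0.0913), and that in CMV-miR-29b cells without untreated replicate c (0.0547), untreated replicate d (0.0568), TGF-β replicate d (0.0655) or TGF-β replicate e (0.0559).

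Sdc4 and Sdc2 did not pass the test with TGF-β. Sdc4 was at 289, 286 and 280 CPM in untreated empty vector libraries and at 264, 272 and 249 CPM with TGF-β, so that the groups did not overlap. Its log2 fold change was -0.12 ± 0.0426 (95% interval -0.21 to -0.03, adjusted p 0.128). With Col1a1-miR-29b it was -0.06 (-0.15 to 0.03) and with CMV-miR-29b -0.05 (-0.14 to 0.04). Sdc2 was the steadiest of the families, with 69.7 to 78.4 CPM over all 18 libraries, and its log2 fold change with TGF-β was -0.01 (-0.09 to 0.08), 0.03 (-0.05 to 0.12) and 0.01 (-0.08 to 0.10) in empty vector, Col1a1-miR-29b and CMV-miR-29b cells.

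The 2 low glypicans varied widely among replicates. Gpc4, which binds Wnt and fibroblast growth factors, was at 1.18, 1.34 and 1.13 CPM in untreated empty vector libraries and at 1.35, 0.669 and 1.56 CPM with TGF-β. Gpc6 was at 3.26, 3.79 and 5.33 CPM without TGF-β and at 3.95, 3.96 and 6.71 CPM with it. The intervals of their log2 fold changes in empty vector cells, -0.70 to 0.65 for Gpc4 and -0.36 to 0.83 for Gpc6, hold 0 as well as the change measured for Sdc1. At 45 to 124 counts of Gpc4 and 171 to 489 counts of Gpc6 per library, and with standard errors of 0.318 and 0.279, a difference of this size was not detectable.

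**Figure D3:**
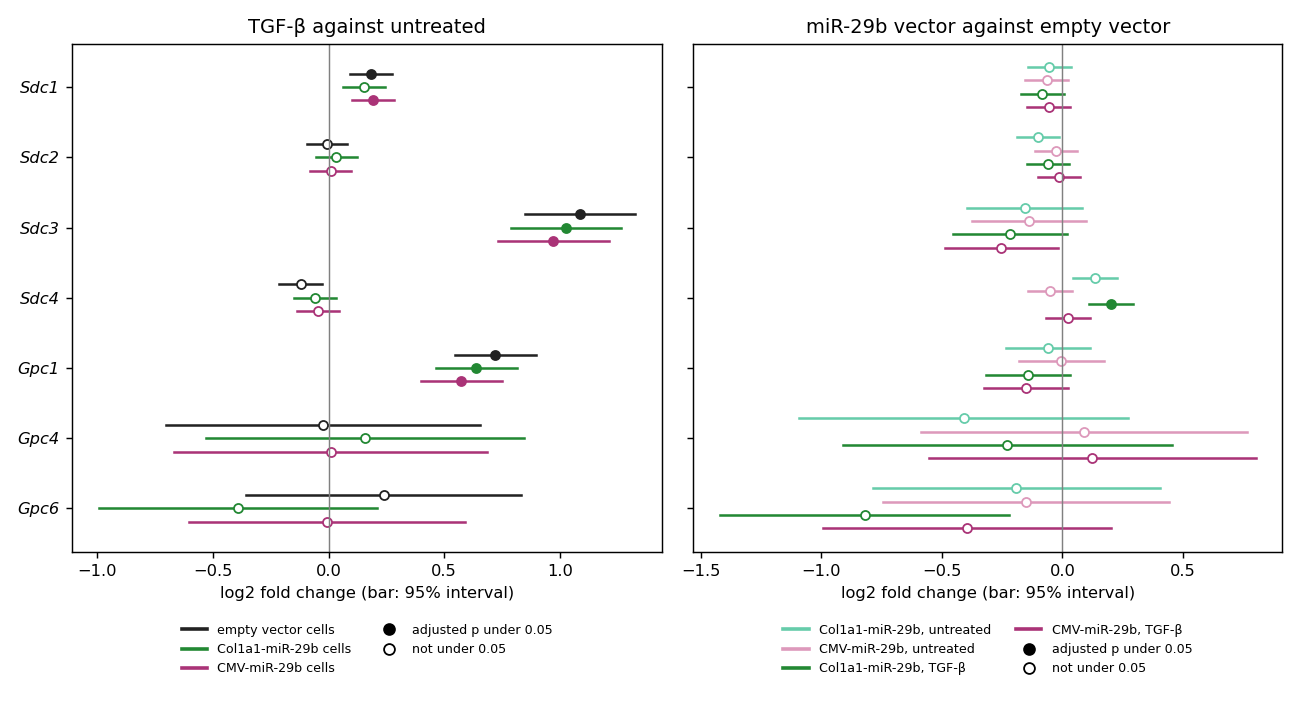
Log2 fold changes of the 7 tested genes with 95% intervals as bars, for TGF-β against untreated cells in each vector (left) and for each miR-29b vector against the empty vector (right). Filled points have an adjusted p under 0.05 (8 on the left, for Sdc3, Gpc1 and Sdc1, and 1 on the right, for Sdc4), and the bars of Gpc4 and Gpc6 are the widest.

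To learn whether the miR-29b vectors changed the families, each was compared with the empty vector at the same treatment. Without TGF-β none of the 7 genes was called with Col1a1-miR-29b by edgeR, where 6.27% of all genes were, and 2 had an unadjusted p under 0.05 (Sdc2 and Sdc4), as did 4560 of the 21161 genes. DESeq2 also called none of them there. With TGF-β 1 gene was called with Col1a1-miR-29b, Sdc4, against 12.9% of all genes, a share that is close to 1 in 7. With CMV-miR-29b none was called without TGF-β, where 0.00473% of all genes were, and none with TGF-β, where 0.00945% were. The numbers at an unadjusted p under 0.05 there were 0 and 1 members, beside 1156 and 2531 of all genes, and DESeq2 likewise called none. Of the calls with Col1a1-miR-29b, 40.9% were higher without and 41.0% with TGF-β, and 51.4% and 52.6% with scaling by total counts. The counts of the 2 TGF-β comparisons and of the 2 untreated ones share the empty vector libraries as controls.

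Sdc4 was higher with the Col1a1-miR-29b vector. With TGF-β it was at 264, 272 and 249 CPM in empty vector libraries and at 301, 302 and 299 CPM in Col1a1-miR-29b libraries. The log2 fold change was 0.20 ± 0.0426 (95% interval 0.11 to 0.29, adjusted p 0.00667), and the call held under each of the 26 alternatives. Without TGF-β the values were 289, 286 and 280 CPM against 311, 327 and 301 CPM, which did not overlap, and the log2 fold change of 0.14 ± 0.0426 did not pass the test (adjusted p 0.0714). With CMV-miR-29b the libraries overlapped those of the empty vector, at 264, 288 and 274 CPM without TGF-β and 274, 266 and 258 CPM with it. With CMV-miR-29b the log2 fold changes of Sdc4 were -0.05 (-0.14 to 0.04) without and 0.02 (-0.07 to 0.12) with TGF-β.

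Gpc6, the gene with the seed match, did not pass the test against the empty vector. With TGF-β it was at 3.95, 3.96 and 6.71 CPM in empty vector libraries, at 2.31, 3.12 and 2.84 CPM with Col1a1-miR-29b and at 2.84, 4.59 and 3.69 CPM with CMV-miR-29b. The Col1a1-miR-29b libraries were all lower than those of the empty vector, at a log2 fold change of -0.82 ± 0.282 (95% interval -1.42 to -0.22, adjusted p 0.0704), while those of CMV-miR-29b overlapped them, at -0.40 (-0.99 to 0.20). DESeq2 called the difference with Col1a1-miR-29b (adjusted p 0.0284), and so did edgeR without CMV-miR-29b untreated replicate d (adjusted p 0.0487). Without 1 library the log2 fold change ranged from -0.96 to -0.52, the latter without empty vector TGF-β replicate e (adjusted p 0.331), and with the replicate block it was -0.69 (adjusted p 0.237). Without TGF-β the log2 fold changes were -0.19 (-0.79 to 0.40) and -0.15 (-0.75 to 0.44). With TGF-β the intervals of both miR-29b vectors overlapped, and these vectors were not compared with each other. Whether the seed match had a part in these values was not tested.

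None of the other 5 tested genes passed the test against the empty vector. Gpc4 without TGF-β was at 1.18, 1.34 and 1.13 CPM in empty vector libraries and at 0.936, 0.787 and 1.01 CPM with Col1a1-miR-29b, all lower, at a log2 fold change of -0.41 (95% interval -1.09 to 0.27, adjusted p 0.523). With TGF-β the Gpc4 libraries overlapped, at -0.23 (-0.91 to 0.45), and with CMV-miR-29b the log2 fold changes were 0.09 (-0.59 to 0.77) without and 0.12 (-0.56 to 0.80) with TGF-β. With TGF-β, Sdc3 had log2 fold changes of -0.22 (-0.45 to 0.02) with Col1a1-miR-29b and -0.25 (-0.49 to -0.02) with CMV-miR-29b, the latter at an unadjusted p of 0.0362 and an adjusted p of 0.382. Gpc1 had -0.14 (-0.32 to 0.03) and -0.15 (-0.33 to 0.02). Sdc1 had -0.08 and -0.06, and Sdc2 -0.06 and -0.01, with intervals that held 0. Sdc2 without TGF-β was at -0.10 (-0.19 to -0.01) with Col1a1-miR-29b, at an adjusted p of 0.166.

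Whether the TGF-β response differed between a miR-29b vector and the empty vector was tested as a contrast of the same model. None of the 7 genes passed by edgeR or by DESeq2, and none had an unadjusted p under 0.05 by edgeR. Over all genes edgeR called 0% for Col1a1-miR-29b and 0% for CMV-miR-29b, with 961 and 1129 genes at an unadjusted p under 0.05, while DESeq2 called 21 and 19 genes. For Sdc3 the difference was -0.06 (95% interval -0.39 to 0.27) and -0.11 (-0.45 to 0.22) on the log2 scale, and for Gpc1 -0.08 (-0.33 to 0.16) and -0.15 (-0.39 to 0.10). For Gpc6 it was -0.63 (-1.47 to 0.21) and -0.24 (-1.09 to 0.60), a range too wide to read.

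The chains that these core proteins carry are built, trimmed and bound by other genes, which were counted over whole lists by function, while the genes named are those with the largest called changes. The counts of these lists in empty vector cells stand beside 5.88% of all genes called with TGF-β, 3.88% higher and 2.01% lower. Of 15 tested genes of heparan sulfate chain synthesis, 2 rose with TGF-β in empty vector cells. Ext1, a subunit of the polymerase that extends the chain, went from 79.5 ± 4.89 to 133 ± 22.7 CPM (log2 fold change 0.74, adjusted p 0.00168), and B4galt7, which adds the first galactose of the linker, from 14.5 ± 1.46 to 19.4 ± 0.758 CPM (0.42, adjusted p 0.00747). The median log2 fold change of the list was 0.02. Of 8 tested genes that modify the chain, 1 rose, Glce, the epimerase that makes iduronic acid, from 167 ± 3.57 to 192 ± 12.2 CPM (0.21, adjusted p 0.0116), at a list median of 0.11.

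Among 10 tested genes that edit the chains outside the cell or release the core proteins, 4 rose and 1 fell in empty vector cells, at a list median of 0.39. Sulf1 and Sulf2, the extracellular enzymes that remove sulfate from the chains, rose from 1.47 ± 0.288 to 3.06 ± 0.335 CPM and from 2.22 ± 0.589 to 5.89 ± 0.271 CPM. Timp3, an inhibitor of the metalloproteinases that shed syndecans, rose from 74.1 ± 3.45 to 184 ± 11.0 CPM. Mmp14, a membrane metalloproteinase that can cleave Sdc1, rose from 68.3 ± 1.38 to 107 ± 8.88 CPM. Hpse, the heparanase that cuts the chains, was chosen after its values were seen and fell from 98.5 ± 5.12 to 75.8 ± 2.17 CPM (log2 fold change -0.38, adjusted p 0.000376). The members that rose thus included an inhibitor of shedding beside a protease that can shed.

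Of 13 tested proteins that bind the cytoplasmic tails or act with them, 3 rose and 1 fell, at a list median of 0.03. Prkca, the protein kinase C that Sdc4 binds, rose from 46.0 ± 2.24 to 70.5 ± 11.1 CPM, and Cttn, an actin-binding protein, from 320 ± 6.47 to 357 ± 7.71 CPM. Sdcbp2, a PDZ protein of the syntenin family, rose from 0.506 ± 0.328 to 1.69 ± 0.480 CPM. Ezr, which links membrane proteins to actin, fell from 364 ± 5.97 to 297 ± 7.27 CPM.

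Of 8 tested other proteoglycans and part-time carriers of the chains, 2 rose and 1 fell, at a list median of -0.03. Cd44, the hyaluronan receptor, rose from 168 ± 5.55 to 273 ± 9.35 CPM, Col18a1, a basement membrane collagen with heparan sulfate, from 25.5 ± 1.10 to 38.5 ± 2.71 CPM, and Nrp1, a receptor of semaphorins, fell from 20.3 ± 0.907 to 14.9 ± 1.30 CPM. Of 17 tested ligands and receptors that bind the chains, 6 rose and none fell, at a list median of 0.41. Thbs1, a matrix protein that activates latent TGF-β, rose from 110 ± 7.57 to 274 ± 27.5 CPM, and Lrp1, an endocytic receptor, from 270 ± 11.2 to 465 ± 28.8 CPM. Fgfr1, the receptor of fibroblast growth factors that need the chains, rose from 104 ± 4.95 to 165 ± 15.6 CPM, and Grem1, an antagonist of bone morphogenetic proteins, from 35.5 ± 3.50 to 59.2 ± 15.9 CPM.

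**Figure D4:**
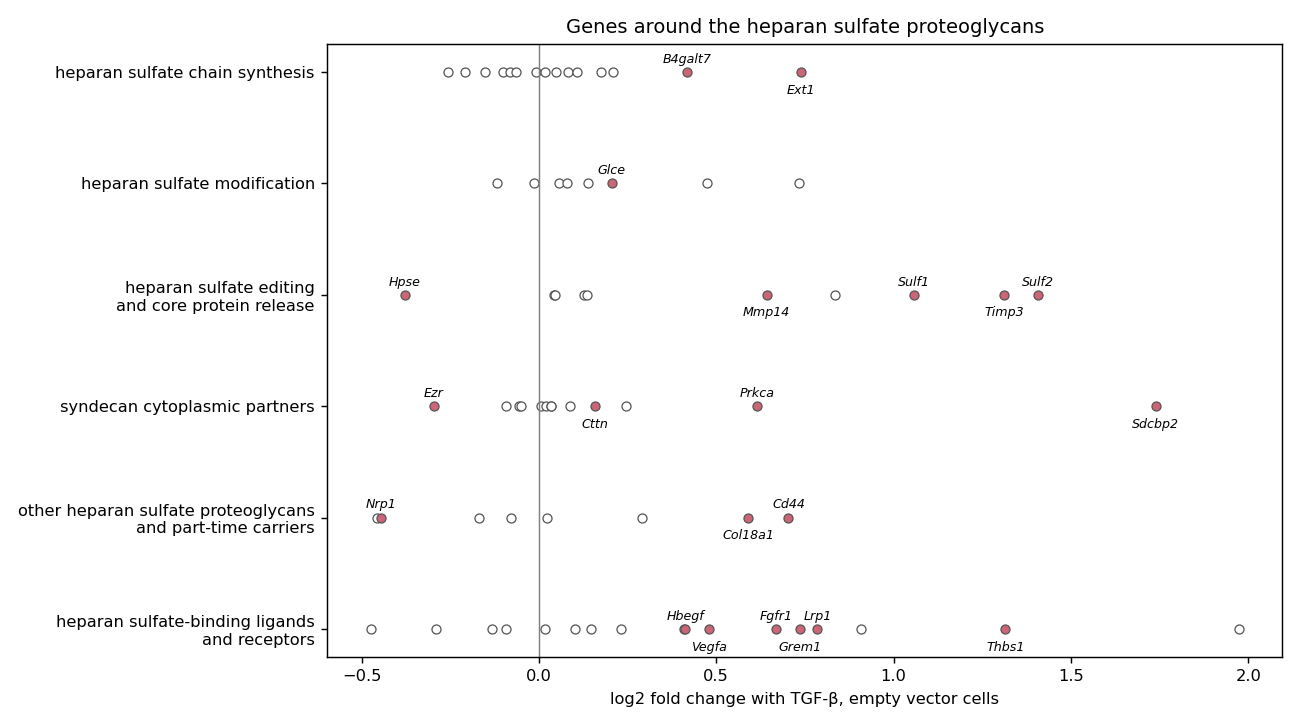
Log2 fold change with TGF-β in empty vector cells for 71 tested genes in 6 lists by function, one point per gene. Named filled points have an adjusted p under 0.05, among which Sdcbp2, Sulf2, Thbs1 and Timp3 lie farthest to the right and Ezr, Hpse and Nrp1 lie below 0.

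With TGF-β, 4.32% of all genes were called in Col1a1-miR-29b cells (3% higher, 1.32% lower) and 4.95% in CMV-miR-29b cells (3.08% higher, 1.87% lower). In that order of vectors, the same comparison called 2 and 1 genes of chain synthesis higher and none of the genes that modify the chain. It called 4 and 3 of the genes of editing and release higher and 1 lower in each. Of the cytoplasmic partners it called 3 and 1 higher and 1 lower in each, and of the other proteoglycans 2 higher and 1 lower in each. Of the ligands and receptors it called 5 higher in each. Against the empty vector with TGF-β, where 12.9% of all genes were called, Col1a1-miR-29b had 1 higher and 2 lower of the 15 genes of chain synthesis, 2 lower of the 8 genes of modification, 3 lower of the 8 other proteoglycans, 1 higher and 2 lower of the 13 partners, and 1 higher and 5 lower of the 17 ligands and receptors, and 1 lower of the 10 genes of editing. Without TGF-β, where 6.27% of all genes were called, it had 3 lower of the 15 genes of chain synthesis, 2 lower of the 8 other proteoglycans, 1 lower of the 10 genes of editing and 1 higher and 1 lower of the 17 ligands and receptors, and none of the partners or the genes of modification. No gene of these lists was called with CMV-miR-29b or in the difference of responses.

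Of the markers of other cell types, 1 was called with TGF-β in empty vector cells, and none of the 3 tested epithelial or the 2 tested blood cell markers was called in any vector. Of 4 endothelial markers, Cdh5 rose in empty vector cells from 0.525 ± 0.193 to 1.76 ± 0.301 CPM, and the summed level of the list was 0.936 to 1.43 CPM without TGF-β and 2.33 to 2.83 CPM with it. Pecam1 was at 22 to 76 counts in all libraries, and Kdr and Tek reached 0 in some. The 5 epithelial markers summed to at most 1.03 CPM in any library, with Epcam at 0 to 4 counts. Of the blood cell markers, Cd68 had 613 to 1004 counts and Ptprc 0 to 25. Their part in the rise of Sdc3, Gpc1 and Sdc1 was not tested.

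The genes most alike to each of the 3 genes that rose in empty vector cells were sought over the 18 libraries, by Pearson's r of log2 CPM among the 13911 genes whose mean CPM reached 1. Sdc3 was most alike to Atp6v1g1, a subunit of the vacuolar proton pump (r = 0.985), Pkp1, a desmosomal plaque protein (r = 0.984), and Timp3 (r = 0.983). Gpc1 was most alike to Smtn, a protein of the contractile apparatus (r = 0.979), Pkp1 (r = 0.978) and Tubb3, a tubulin (r = 0.977). Sdc1 was most alike to Sfxn3, a mitochondrial carrier (r = 0.957), Chst11, which sulfates chondroitin (r = 0.953), and Elk3, a transcription factor (r = 0.948). These are descriptions over libraries that share the split into untreated and treated cells. All 8 genes rose with TGF-β with each of the 3 vectors. Since they were chosen for likeness to members that rose in the same libraries, their rise is not a separate result. Their log2 fold changes in empty vector cells ran from 0.35 for Sfxn3 to 1.31 for Timp3, and Pkp1, at 1.11, had the size of change nearest to that of Sdc3.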

How the data were processed

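Poly(A) RNA libraries were made with a stranded mRNA kit and sequenced as paired ends. The authors trimmed reads with cutadapt, checked them with FastQC, mapped them with HISAT2 and assembled transcripts with StringTie. The tool that produced the counts is not given in the sources used here. The deposited counts are whole numbers per gene, not normalized, and multiples of 4 made up 33.8% to 36.7% of a library's values between 1 and 40. The deposited FPKM values, which hold 1e-04 in place of 0, were made by the authors, who name DESeq2 as their source. The labels name the build mm9, but the gene coordinates are those of GENCODE M21 (GRCm38) for 52506 of 55450 genes and for all 10 members.

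Columns were matched to samples by name. In each Col1a1-miR-29b group the letter of 1 column matches no sample title, so its counts entered as an unlettered library of that group, while its FPKM values, 2 columns in all, were not used.

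Counts were tested with edgeR 4.0.16 in R 4.3.3 with filterByExpr (21161 genes kept), TMM normalization, 1 mean for each of 6 groups and quasi-likelihood F tests on contrasts. P-values are two-sided, adjusted by Benjamini-Hochberg over all genes tested and called under 0.05. Standard errors come from the F statistic and intervals cover 95%. The procedure was tested on simulated counts with a common spread for all genes. The changes set there were larger than those of Sdc1 and Sdc4, so that test does not cover changes this small. The limits given for genes with 0 counts use 3 counts and cover counting error only.

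The members, the lists by function and the tests were chosen with earlier results of these data known. Genes named are the 10 members, check genes (Mir29b-1, Col1a1 and Acta2, with another that is not reported here), at most 4 genes of each list with the largest called changes with TGF-β in empty vector cells, any list gene called in a difference of responses, and the 3 genes most alike to each called member. Acta2 rose in those cells by a log2 fold change of 1.64. Hpse, and the markers named, fall outside this rule or were taken from the marker lists. The alternatives were DESeq2 1.42.0, its size factors in edgeR, total counts, a filter of at least 1 count in any library, a replicate block by letter, limma 3.58.1 on log2(FPKM + 1) and log2(FPKM + 0.1) over 16 libraries, and leaving out each of the 18 libraries. The fit without a block and without the unlettered libraries was added after the data were seen.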

Additional observations from a re-analysis of the deposited data

How the results depend on the processing

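The calls of Sdc3 and Gpc1 with TGF-β (3 vectors) and of Sdc4 with Col1a1-miR-29b and TGF-β held in 26 of 26 alternatives each, at log2 fold changes of 0.456 to 1.13 for Sdc3, 0.507 to 0.755 for Gpc1 and 0.169 to 0.240 for Sdc4. Those of Sdc1 held in 22 of 26 in empty vector and in CMV-miR-29b cells, and were lost only when 1 library of the same vector was left out. The count of members called with Col1a1-miR-29b against the empty vector with TGF-β was 2 with DESeq2 and 1 to 2 without 1 library, the second gene being Gpc6. Of all genes, DESeq2 called 19% there, against 12.9% in the main fit. The fit without CMV-miR-29b untreated replicate d, which also called 2 members, called 12.7%. In total 57 values, none of them called, changed sign, and the cause was not tested beyond the loss of libraries that some alternatives have by construction.

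With limma on log2(FPKM + 0.1) and log2(FPKM + 1), the log2 fold changes that changed sign were, for Col1a1-miR-29b against empty vector without TGF-β, 0.0371 and 0.0325 for Gpc1 and 0.0057 and 0.0055 for Sdc1, and 0.0057 on the first scale for Gpc6. They were -0.0177 and -0.0012 for Gpc4 and 0.0113 and 0.0005 for Gpc6 in the TGF-β response of CMV-miR-29b cells. For Sdc2 they were 0.0179 and 0.0171 for CMV-miR-29b against empty vector with TGF-β (0.0181 with total counts), -0.0423 and -0.0404 in the TGF-β response of Col1a1-miR-29b cells and -0.0017 and -0.0016 in its difference from that of empty vector cells. The replicate block gave -0.0205 and -0.0101 for these last Sdc2 values, as did the same 16 libraries with no block, and it gave 0.1057 for Gpc6 with Col1a1-miR-29b without TGF-β, where no block gave 0.0042 for Gpc1. The replicate block changed no call of a member. Libraries with the same letter did not deviate together (mean r of 0.00635 over 36 pairs, against -0.00310 over 70 pairs with other letters), so the letters were not taken as a pairing.

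Leaving out 1 library in turn, the signs changed for Gpc1 (-0.0571 to 0.0449) and Gpc6 (-0.3665 to 0.0739) for CMV-miR-29b against empty vector without TGF-β, and for Gpc1 (-0.1268 to 0.0042) and Gpc6 (-0.345 to 0.0253) for Col1a1-miR-29b. With TGF-β they changed for Gpc4 (-0.1709 to 0.3686), Sdc2 (-0.025 to 0.0075) and Sdc4 (-0.0078 to 0.0478) with CMV-miR-29b and for Gpc4 (-0.5228 to 0.0358) with Col1a1-miR-29b. In the TGF-β response they changed for Gpc4 (-0.2233 to 0.1994), Gpc6 (-0.2422 to 0.1919) and Sdc2 (-0.0078 to 0.0263) in CMV-miR-29b cells, for Gpc4 (-0.0401 to 0.4219) and Sdc2 (-0.0009 to 0.057) in Col1a1-miR-29b cells, and for Gpc4 (-0.2789 to 0.2539), Gpc6 (-0.0751 to 0.4551) and Sdc2 (-0.0378 to 0.0053) in empty vector cells. In the difference of responses they changed for Gpc4 (-0.2491 to 0.2819), Gpc6 (-0.468 to 0.0616) and Sdc1 (-0.0236 to 0.0405) for CMV-miR-29b and for Gpc4 (-0.0957 to 0.4556) and Sdc1 (-0.0659 to 0.005) for Col1a1-miR-29b.

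Over all genes, the number called for Col1a1-miR-29b against empty vector without TGF-β was 1327, and 2336 with DESeq2, 161 with the replicate block, 397 without the unlettered libraries, 481 and 390 with limma on the FPKM scales and 468 to 1706 without 1 library. With TGF-β it was 2738, and 3491 with DESeq2, 1152 with the replicate block and 1659 without the unlettered libraries. The limma fits gave 1752 and 1632, and the fits without 1 library 1291 to 3182. For the TGF-β response 1245 genes were called with the empty vector, falling to 725 when its TGF-β replicate e was left out, and 914 in Col1a1-miR-29b cells (394, 453, 499 and 465 in the block, no-block and limma fits on 16 libraries). For CMV-miR-29b it was 1 and 2 without and with TGF-β, and 37 and 294 with DESeq2. With TGF-β it was also 4 at a filter of at least 1 count, and up to 160 without 1 library. With total counts, 51.4% and 52.6% of the calls for Col1a1-miR-29b without and with TGF-β were higher, against 40.9% and 41.0%, and limma on log2(FPKM + 1) gave 63.4% and 57.3%. In the difference of responses for Col1a1-miR-29b, where edgeR called 0, the replicate block called 2, no block on the same libraries 3 and limma 3.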
